A study of Mus musculus with 6 samples.

Results

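The Notch pathway was examined through 10 genes, chosen by name: the receptors Notch1, Notch2, Notch3 and Notch4, the ligands Jag1, Jag2 and Dll1, and the target genes Hes1, Hey1 and Heyl. All 10 were found among the 55471 genes of the count table. RNA was sequenced from primary osteoblasts, the bone-forming cells, taken from the parietal bones of 3-day-old C57BL/6 mice and cultured for 3 days. There were 3 libraries from wild type mice (WT) and 3 from triple conditional knockout mice (TCKO), which carried Prx1-Cre together with the floxed alleles Tet1fl/fl, Tet2fl/fl and Tet3fl/fl. Prx1-Cre is a recombinase active in limb bud and part of the skull mesenchyme, so that cells outside its range keep the Tet genes, which encode the enzymes that oxidise methylated cytosine. Whether the WT mice carried floxed alleles, and whether cells of several pups were pooled, is not stated in the sources used here.

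Notch receptors are membrane proteins that are activated by ligands of the Jagged and Delta-like families on a neighbouring cell. The bound receptor is cut by ADAM proteases and then by gamma-secretase, and the freed intracellular part enters the nucleus, where it joins the DNA-binding protein RBPJ and a Mastermind coactivator to turn on genes such as those of the Hes and Hey families, which encode transcriptional repressors. In the skeleton, Notch activity is known for keeping mesenchymal progenitors from maturing into osteoblasts, and HES and HEY proteins can interact with RUNX2.

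The libraries held between 8019999 and 10177214 counts. As far as counting error goes, an observed count of 0 can hide an expected count of up to about 3. In these libraries 3 counts stood for 0.295 to 0.374 CPM (counts scaled to the library total). Of the targeted genes, Tet1 was lower in TCKO, at -0.97 ± 0.16 on the log2 scale (log2 fold change ± SE; edgeR adjusted p = 0.00648), Tet2 was at -0.14 ± 0.14 (adjusted p = 0.545) and Tet3 was higher, at 0.51 ± 0.09 (adjusted p = 0.00745). Counts were summed over all exons, the exons outside the deleted parts included, so these values check the labels only in part. Replicates 1 and 2 of each genotype were close to each other (chi-square per degree of freedom of 1.69 in WT and 2.04 in TCKO) and both stood apart from replicate 3 (16.6 to 23.3). Each such pair therefore adds little to a measure of how cultures vary, and nothing in the labels says that the libraries came from separate animals. Mitochondrial genes took 2.22% and 2.47% of counts in replicate 3 of WT and TCKO against 1.11% to 1.24% in the others, and TCKO replicate 3 alone had the Xist counts of female cells (4583, against 1 to 4). The main results are therefore also given within replicate numbers. Within replicate 3, however, the Y-linked gene Ddx3y had 936 counts in WT and 0 in TCKO. Genotype and sex cannot be told apart in the replicate 3 differences. Of the 12 osteoblast markers 8 were tested, of which 4 were lower and 1 was higher in TCKO, and their summed level was 4697 to 5129 RPKM (CPM per kilobase of exon) in WT and 4005 to 8617 RPKM in TCKO. Among them Col1a1 stood at 3400 RPKM in WT and 2220 RPKM in TCKO, Runx2 at 10.8 and 7.95 RPKM, and Spp1 at 709 and 4350 RPKM, whereas the markers of mature osteoblasts Bglap, Bglap2 and Dmp1 had at most 10 counts in every library. The cartilage collagen gene Col2a1 stood at 698 RPKM in WT and at 79.8 RPKM in TCKO.

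To show the sequence ahead of these genes, the stretches just upstream of 4 members are given, 5′ to 3′ on the strand of the gene, from RefSeq windows of the build GRCm38.p6. The receptors were chosen as that lower in TCKO (Notch3), that with the highest RPKM (Notch2) and that with the lowest (Notch4). Jag1 was chosen as the ligand with the highest RPKM among the members. Capitals mark CG dinucleotides, the sites that TET enzymes act on when methylated. The stretches end before the first base of the deposited exons. They lie at chr17:32166853-32167140 on the minus strand (Notch3), chr3:98013288-98013526 on the plus strand (Notch2), chr17:34564045-34564267 on the plus strand (Notch4) and chr2:137116645-137116770 on the minus strand (Jag1).
Notch3: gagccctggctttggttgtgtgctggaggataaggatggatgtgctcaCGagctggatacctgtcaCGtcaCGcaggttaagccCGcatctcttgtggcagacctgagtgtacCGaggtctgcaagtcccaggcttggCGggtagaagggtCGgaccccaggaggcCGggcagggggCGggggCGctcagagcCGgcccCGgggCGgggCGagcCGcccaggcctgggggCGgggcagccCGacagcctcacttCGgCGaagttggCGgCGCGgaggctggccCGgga
Notch2: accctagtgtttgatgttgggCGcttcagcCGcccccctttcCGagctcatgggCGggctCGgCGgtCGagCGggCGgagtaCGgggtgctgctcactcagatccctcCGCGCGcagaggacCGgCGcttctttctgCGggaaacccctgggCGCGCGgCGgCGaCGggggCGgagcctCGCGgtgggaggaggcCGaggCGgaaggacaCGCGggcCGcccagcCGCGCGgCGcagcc
Notch4: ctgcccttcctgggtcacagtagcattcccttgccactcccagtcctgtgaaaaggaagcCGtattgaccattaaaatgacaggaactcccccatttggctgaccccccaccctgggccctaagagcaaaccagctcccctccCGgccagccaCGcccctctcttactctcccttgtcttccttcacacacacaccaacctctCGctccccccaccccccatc
Jag1: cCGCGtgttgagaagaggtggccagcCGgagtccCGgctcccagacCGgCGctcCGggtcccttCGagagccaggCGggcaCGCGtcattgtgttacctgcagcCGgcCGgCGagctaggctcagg

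These stretches hold 23 CG in 288 bases (Notch3), 34 in 239 (Notch2), 4 in 223 (Notch4) and 14 in 126 (Jag1). Windows of 300 bases, 250 before and 50 after the RefSeq start, were found for 7 of the 10 members, 8 windows in all, and none were given for Hes1, Hey1 and Heyl. The Notch4 window held 5 CG, under the median of 7 over all 32851 windows, and the other 7 windows of the members held 15 to 63. The core RBPJ motif TGGGAA, searched on both strands, was in 0 of the 8 windows and in 25.6% of all windows. DNA methylation was not analysed here.

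The levels were compared first. Per length of exon, Hes1 was the most abundant member in WT, at 30.6 ± 5.55 RPKM (SD, n = 3), followed by Jag1 (11.5 ± 2.92), Notch2 (10.2 ± 0.645), Notch3 (8.07 ± 1.28) and Notch1 (4.40 ± 0.442). The values of Jag1 and Notch2 overlapped between libraries, and the other neighbours in this order did not. Hey1 followed at 0.822 ± 0.354 RPKM, with 13 to 32 counts per WT library. Heyl, Jag2, Notch4 and Dll1 were nearer the limit of detection. Their means were 0.221, 0.0924, 0.0489 and 0.0462 RPKM, and their values overlapped from each gene to the next. In TCKO the order was Hes1 (30.5 ± 15.1 RPKM), Notch2 (9.28 ± 1.04), Jag1 (8.24 ± 1.30), Notch3 (5.25 ± 0.754), Notch1 (3.49 ± 0.538) and Hey1 (0.580 ± 0.292), with Notch4 (0.154 ± 0.0267) above Heyl, Jag2 and Dll1. Notch2 and Jag1 again overlapped, and so did the values of Notch4, Heyl, Jag2 and Dll1 from each gene to the next. Of the 10 members, 3 receptors, 1 ligand and 1 target thus had mean levels of more than 3 RPKM in both genotypes.

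**Figure D1:**
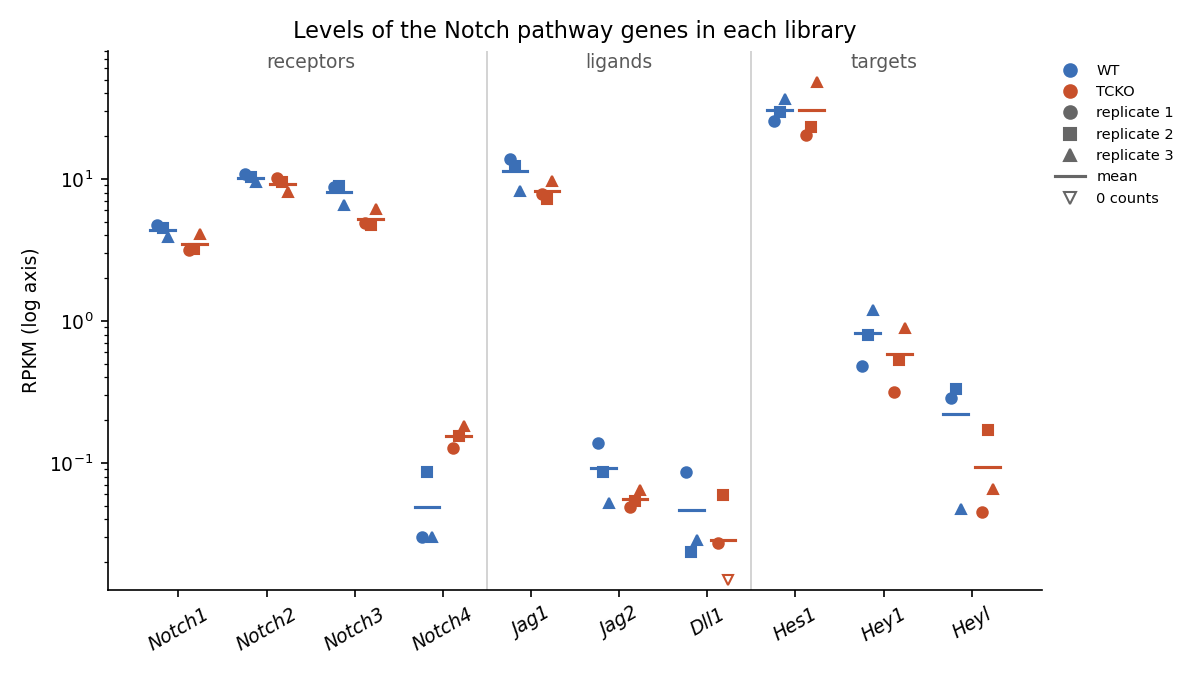
Level of each of the 10 genes in RPKM on a log axis, for WT (blue) and TCKO (orange), with 1 symbol per library and replicate, a bar at the mean and an open triangle for a library with 0 counts. Hes1, Jag1, Notch2, Notch3 and Notch1 lie between 3.16 and 47.8 RPKM, and the other 5 genes at or below 1.19 RPKM.

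Genotypes were then compared with edgeR's quasi-likelihood test over all genes. Of the 10 members, 6 passed the filter on low counts. Among them 1 was lower and 0 were higher in TCKO at an adjusted p under 0.05, that is 16.7% of those tested, where 17.7% of all 13826 tested genes were called in either direction, 8.63% lower and 9.07% higher. The share of members called was thus close to that of all genes. At an unadjusted p under 0.05, 3 members were lower and 0 were higher, where 2217 and 2280 of the 13826 tested genes were. DESeq2 also called 1 member lower and 0 higher, where it called 1181 and 1260 of all these genes. No member passed the study's additional cutoff of a 2-fold change (0 of 6, against 6.35% of all tested genes, of which 3.19% were lower and 3.16% higher). The median log2 fold change of the 6 tested members was -0.40, and that of all tested genes was 0.00.

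Among the receptors, Notch3 was lower in TCKO. NOTCH3 is best known from the mural cells of blood vessels and is also made by mesenchymal cells. Notch3 lies on chromosome 17 of GRCm38 at 32120820 to 32166852 (ENSMUSG00000038146). In WT replicates 1, 2 and 3 it was counted 585, 717 and 440 times, and in TCKO replicates 349, 307 and 441 times. In CPM these were 70.8, 71.5 and 53.3 in WT and 39.8, 38.2 and 49.5 in TCKO. Every TCKO library was below every WT library, as was the case, in either direction, for 38.3% of all tested genes. The log2 fold change was -0.62 ± 0.14 (SE; edgeR adjusted p = 0.0240). The replicate 3 libraries lay nearest to the other genotype, and the log2 difference in CPM + 2 was -0.80 and -0.87 within replicates 1 and 2 but -0.10 within replicate 3. The call was lost without any one of WT replicates 1 and 2 and TCKO replicates 1 and 2 (edgeR adjusted p = 0.0951, 0.0975, 0.0904 and 0.0919), became stronger without replicate 3 of either genotype (both -0.74) and was lost with replicates 1 and 2 summed into 1 sample per genotype (0.257).

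Notch1 (ENSMUSG00000026923, chromosome 2, 26457903 to 26516663), whose product is the most widely studied receptor of the family, showed a similar arrangement at a smaller size. It had 67.6, 64.7 and 55.5 CPM in WT and 45.0, 45.6 and 58.6 CPM in TCKO. TCKO replicate 3 lay above WT replicate 3, so that the genotypes overlapped. The log2 fold change of -0.33 ± 0.13 did not pass (edgeR adjusted p = 0.113). It passed in 1 of 14 alternatives, without TCKO replicate 3, at -0.46 (edgeR adjusted p = 0.0168). There the TCKO group was only the close pair of replicates 1 and 2, which says little of how cultures vary. Within replicates 1, 2 and 3 the log2 differences were -0.57, -0.49 and 0.07.

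Notch2 (ENSMUSG00000027878, chromosome 3, 98013527 to 98150361), a receptor whose truncation causes the skeletal disorder Hajdu-Cheney syndrome, had 116, 111 and 102 CPM in WT and 110, 103 and 87.8 CPM in TCKO. The genotypes overlapped. Its log2 fold change was -0.13 ± 0.10, with a 95% interval from -0.36 to 0.09 (edgeR adjusted p = 0.396).

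Notch4 (ENSMUSG00000015468, chromosome 17, 34564268 to 34588503), a receptor mostly of endothelial cells, was counted 2, 7 and 2 times in WT, against 9, 10 and 13 times in TCKO. All TCKO libraries were above all WT libraries, but these counts did not pass the filter. The summed counts of 11 and 32 gave a ratio of TCKO to WT of 3.00, with an exact 95% interval for counting error only from 1.47 to 6.60. In a fit without the filter its log2 fold change was 1.57 (edgeR adjusted p = 0.0908). Of 10 endothelial markers, 6 had at most 10 counts in every library, among them the defining genes Pecam1, Cdh5, Tie1 and Emcn. Of the 4 that were tested, Kdr and Esam were higher in TCKO and Erg was lower. The summed level of all 10 was 2.06 to 2.92 RPKM in WT and 5.84 to 13.6 RPKM in TCKO, most of the latter from Kdr, at 5.92 RPKM on average. The part of endothelial cells in the Notch4 counts was not tested. In bulk RNA, a change in the number of cells of a type and a change in RNA per cell cannot be told apart.

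The receptors were also set against each other within each library. Summed receptor RNA was 24.3, 23.8 and 20 RPKM in WT and 18.4, 17.6 and 18.6 RPKM in TCKO. Notch2 made up 44.3%, 43.4% and 47.4% of it in WT and 55.4%, 54.1% and 43.9% in TCKO. Notch3 made up 36.0%, 37.2% and 32.9% in WT and 26.8%, 26.8% and 33.0% in TCKO. The 3 WT libraries and TCKO replicate 3 thus had a like make-up, and TCKO replicates 1 and 2 had relatively more Notch2 and less Notch3. Notch1 held 19.4% ± 0.245 in WT and 19.2% ± 2.63 in TCKO (SD, n = 3), and Notch4 stayed under 1% in every library, with a highest share of 0.975%. These shares are a description and were not tested.

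**Figure D2:**
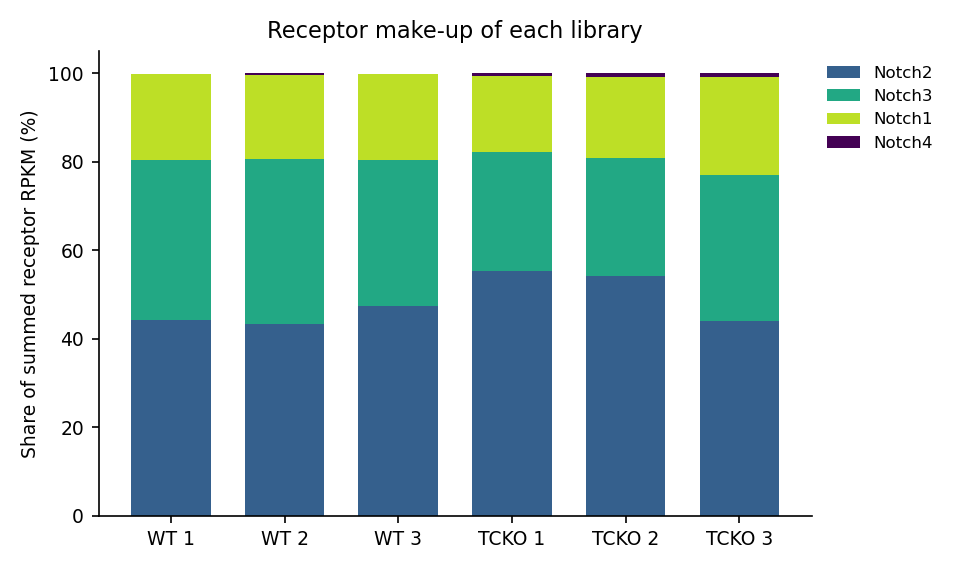
Stacked bars of the share (%) of each receptor in the summed receptor RPKM of each library. TCKO replicates 1 and 2 have a larger share of Notch2 (55.4% and 54.1%) and a smaller share of Notch3 than the WT libraries. The Notch2 share of TCKO replicate 3 (43.9%) resembles that of the WT libraries (43.4% to 47.4%). Shares do not show levels: Notch2 stood at 10.2 and 9.51 RPKM in TCKO replicates 1 and 2, against 10.8 and 10.3 RPKM in those of WT.

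Among the ligands, only Jag1 was abundant enough to be tested. Jag1 (ENSMUSG00000027276, chromosome 2, 137081456 to 137116644) encodes Jagged1, the ligand with the best known part in osteoblasts. It had 80.4, 72.3 and 47.8 CPM in WT and 45.8, 41.8 and 56.4 CPM in TCKO. Replicates 1 and 2 were well separated by genotype and replicate 3 was not, with log2 differences of -0.79, -0.76 and 0.23 within replicates 1, 2 and 3. The log2 fold change of -0.48 ± 0.20 (95% interval -0.93 to -0.02) did not pass over all genes (edgeR adjusted p = 0.136). It passed in 2 of 14 alternatives. These were the fit without the low-count filter (edgeR adjusted p = 0.0368) and that without WT replicate 3, at -0.67 (0.0142). In the latter the WT group was only the close pair of replicates 1 and 2.

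Jag2 (ENSMUSG00000002799, chromosome 12, 112907819 to 112929776), which encodes the second Jagged ligand, was counted 8, 6 and 3 times in WT, against 3, 3 and 4 times in TCKO. Dll1 (ENSMUSG00000014773, chromosome 17, 15367354 to 15376872), which encodes a Delta-like ligand of somite formation, was counted 3, 1 and 1 times in WT, against 1, 2 and 0 times in TCKO. The ratio of TCKO to WT was 0.607 for Jag2 (exact 95% counting interval 0.248 to 1.40) and 0.619 for Dll1 (0.0961 to 3.18), so that neither difference could be resolved at this depth.

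Among the targets, Hes1 differed more between replicates than between genotypes. Hes1 (ENSMUSG00000022528, chromosome 16, 30064384 to 30067796) encodes a repressor of the basic helix-loop-helix class that also responds to signals other than Notch. It had 52.1, 60.3 and 74.4 CPM in WT and 41.3, 47.6 and 97.4 CPM in TCKO. Replicate 3 was the highest library of each genotype, and the 2 replicate 3 libraries lay outside the range of the other 4. The log2 fold change was -0.00 ± 0.31, with a 95% interval from -0.71 to 0.71 (edgeR adjusted p = 0.998). Differences within this interval thus remain compatible with these libraries. Within replicates 1, 2 and 3 the log2 differences were -0.32, -0.33 and 0.38. Without TCKO replicate 3 the log2 fold change was -0.48 (adjusted p = 0.0663).

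Hey1 (ENSMUSG00000040289, chromosome 3, 8663359 to 8667256), which encodes a related repressor that also responds to BMP signals, was counted 13, 26 and 32 times in WT, against 9, 14 and 26 times in TCKO. The genotypes overlapped, with replicate 3 again the highest of each. The log2 fold change, -0.49 ± 0.45, did not pass (edgeR adjusted p = 0.503, 95% interval -1.54 to 0.56). The log2 differences in CPM + 2 within replicates 1, 2 and 3 were -0.24, -0.30 and -0.26. The added 2 CPM shrinks these differences for a gene at 1.03 to 3.88 CPM. Heyl (ENSMUSG00000032744, chromosome 4, 123233556 to 123249875), which encodes the third HEY protein, was counted 12, 17 and 2 times in WT, against 2, 7 and 3 times in TCKO. It did not pass the filter, and WT replicate 3 lay among the TCKO libraries. The ratio of its summed counts was 0.399 (exact 95% counting interval 0.187 to 0.800), and in a fit without the filter its log2 fold change was -1.27 (edgeR adjusted p = 0.299).

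**Figure D3:**
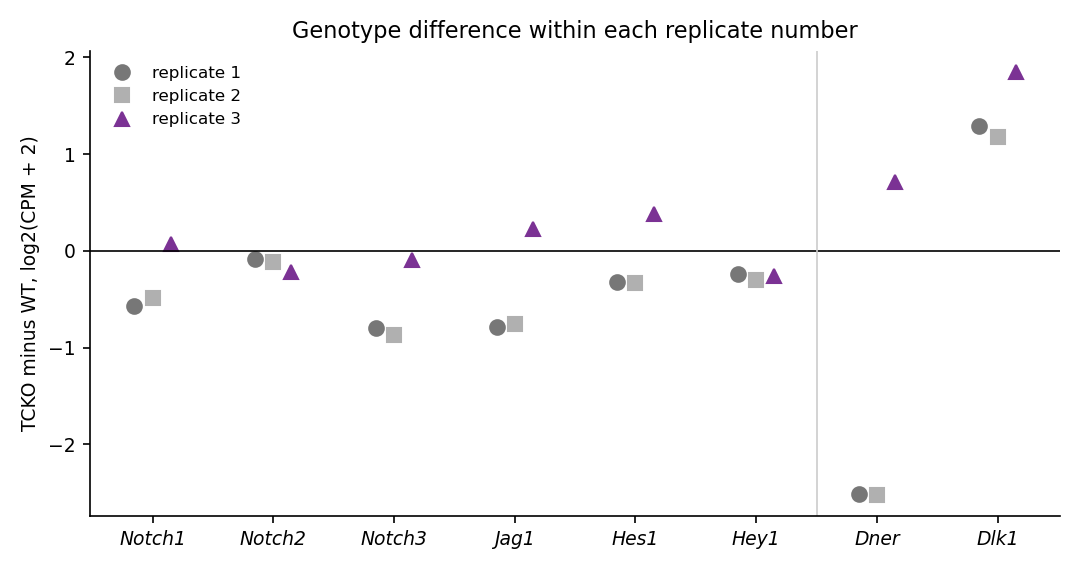
Difference between TCKO and WT in log2(CPM + 2) within each replicate number, for the 6 tested members and the 2 non-classical ligands Dner and Dlk1, with 1 symbol per replicate number. For Notch1, Jag1, Hes1 and Dner the sign in replicate 3 is opposite to that in replicates 1 and 2, and for Notch3 the difference shrinks to -0.10. For Hey1, at 1.03 to 3.88 CPM, the added 2 CPM makes the differences smaller.

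Other genes of the pathway were taken from a list of 59, of which 48 passed the filter on low counts. At an edgeR adjusted p under 0.05, 4 were lower and 4 were higher in TCKO, or 16.7% of those tested, where 17.7% of all tested genes were called. Their median log2 fold change was -0.06. Of the 8 called genes only Ccnd1 changed more than 2-fold.

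Of 5 other ligands, 3 were tested and 0 passed in edgeR (1 at an unadjusted p under 0.05, 0 in DESeq2). Dll3 and Dll4 had at most 3 counts in any library. Dner, which encodes a non-classical ligand known from neurons, had a higher mean level per length than Jag1 in WT, at 22.5 ± 8.12 RPKM, with overlapping libraries. It had 131, 129 and 62.8 CPM in WT and 21.3, 20.9 and 104 CPM in TCKO. The log2 differences within replicates 1 and 2 were -2.51 and -2.52, the largest among the listed pathway genes, and that within replicate 3 was 0.71. Its log2 fold change over all libraries was -1.14 ± 0.61 (edgeR adjusted p = 0.246). Without TCKO replicate 3, with only the close pair left in TCKO, it was -2.35 (edgeR adjusted p = 0.00256). It passed in 2 of 14 alternatives. Dlk1, an imprinted gene whose product restrains adipocyte differentiation, had 13.6, 12.7 and 44.9 CPM in WT and 36.0, 31.3 and 166 CPM in TCKO. It was higher in TCKO within each replicate number, by 1.29, 1.18 and 1.85, and its replicate 3 libraries were the highest of each genotype. Its log2 fold change of 1.73 ± 0.74 did not pass (edgeR adjusted p = 0.152), and was 1.58 with the replicate number as a block (adjusted p = 0.000495). It was 0.52 without TCKO replicate 3 and 2.57 without WT replicate 3, and passed in neither case (adjusted p = 0.502 and 0.0653).

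Genes for receptor modification and cutting were abundant. Of 7 tested genes for glycosylation and processing, 1 was lower and 1 was higher. Pofut1, the fucosyltransferase that modifies Notch receptors, had 145, 142 and 130 CPM in WT and 112, 115 and 109 CPM in TCKO. The libraries of the genotypes did not overlap, and the fold change on the log2 scale was -0.31 ± 0.07 (edgeR adjusted p = 0.0225). Furin, the protease of receptor maturation, had 173, 172 and 188 CPM in WT and 245, 250 and 247 CPM in TCKO. Every TCKO library was above every WT library (0.48 ± 0.07 on the log2 scale, edgeR adjusted p = 0.00347). Adam10, the protease that cuts the bound receptor, was per length the most abundant of this group at 32.1 RPKM in WT and 33.1 RPKM in TCKO (log2 fold change 0.05, 95% interval -0.12 to 0.21). Of the 7 gamma-secretase genes 0 passed in edgeR, 0 at an unadjusted p under 0.05 and 0 in DESeq2, with log2 fold changes from -0.30 to 0.12. Ncstn, a subunit of that enzyme, was per length the most abundant of them, at 51.6 RPKM in WT and 49.5 RPKM in TCKO.

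In the nucleus, Rbpj stood at 8.28 ± 1.15 RPKM in WT and 7.79 ± 1.14 RPKM in TCKO (log2 fold change -0.09, 95% interval -0.40 to 0.23). Of 6 tested genes of the activating complex, Maml2, which encodes a Mastermind coactivator, was lower, with 78.7, 77.1 and 50.3 CPM in WT and 41.7, 36.5 and 37.1 CPM in TCKO. All TCKO libraries were below all WT libraries, and the log2 fold change was -0.84 ± 0.17 (edgeR adjusted p = 0.0135). The gene of this group with the highest RPKM, Maml1, had a log2 fold change of 0.01 ± 0.08. Rbpjl, a relative of Rbpj known from the pancreas, was too rare to test, with 20 counts summed over WT and 1 over TCKO. In the fit without the filter it was lower (edgeR adjusted p = 0.0212), at a level where the fitted fold change depends on the prior count. Of 9 corepressor genes 2 were higher, among them the histone deacetylase gene Hdac2 (log2 fold change 0.28 ± 0.08, edgeR adjusted p = 0.0387), and Ctbp1, the highest in RPKM, was at 0.02 ± 0.07. Hdac2 did not pass in DESeq2 (adjusted p = 0.0540).

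Of 11 tested genes for trafficking and turnover, Mib2, which encodes a ubiquitin ligase for Notch ligands, was lower, with 72.8, 62.5 and 69.0 CPM in WT and 43.1, 41.9 and 45.9 CPM in TCKO. Its log2 fold change of -0.64 ± 0.09 (edgeR adjusted p = 0.00243) was of like size in each replicate number (-0.73, -0.55 and -0.57). Dtx4, which encodes a ubiquitin ligase of the Deltex family, was higher, with 7.14, 7.18 and 6.42 CPM in WT and 13.1, 13.7 and 9.76 CPM in TCKO (log2 fold change 0.81 ± 0.17, edgeR adjusted p = 0.0169). The gene of this group with the highest RPKM, Dtx3, had a log2 fold change of -0.08 ± 0.18.

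Of 7 further targets 4 were tested. Ccnd1, which encodes cyclin D1 and is also a target of many other pathways, had 795, 769 and 438 CPM in WT and 159, 151 and 202 CPM in TCKO. The genotypes were far apart in every replicate number, with log2 differences of -2.30, -2.33 and -1.11, and the log2 fold change was -1.96 ± 0.23 (edgeR adjusted p = 0.00151). Of its exon bases, 23.4% are shared with a gene on the opposite strand, where reads were not counted. Cdkn1a, which encodes the cell cycle inhibitor p21 and had the highest RPKM of the group, was at -0.08 ± 0.11, Myc was at 0.35 ± 0.14 (edgeR adjusted p = 0.127) and Hey2 at 0.46 ± 0.26 (adjusted p = 0.263). Hes5, Hes7 and Nrarp had at most 2 counts in any library, but 31.8% of the exon bases of Hes5 and 79.4% of those of Nrarp lie likewise within exons of the opposite strand. Of the other Hes family genes only Hes6 was tested, at 17.7 ± 2.78 RPKM in WT and 14.7 ± 2.13 RPKM in TCKO (log2 fold change -0.27 ± 0.15, edgeR adjusted p = 0.262).

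How far the calls of the 7 genes named here rest on single libraries differed from gene to gene. Ccnd1, Mib2 and Furin passed with any one library left out. Maml2 did not pass without WT replicate 1, WT replicate 2 or TCKO replicate 2 (edgeR adjusted p = 0.0563, 0.0619 and 0.0574). Pofut1 and Dtx4 did not pass without replicate 1 or 2 of either genotype (adjusted p from 0.0708 to 0.0989 and from 0.0615 to 0.0703), and Hdac2 did not pass with any library left out (0.0535 to 0.143). Their log2 fold changes kept their sign throughout.

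**Figure D4:**
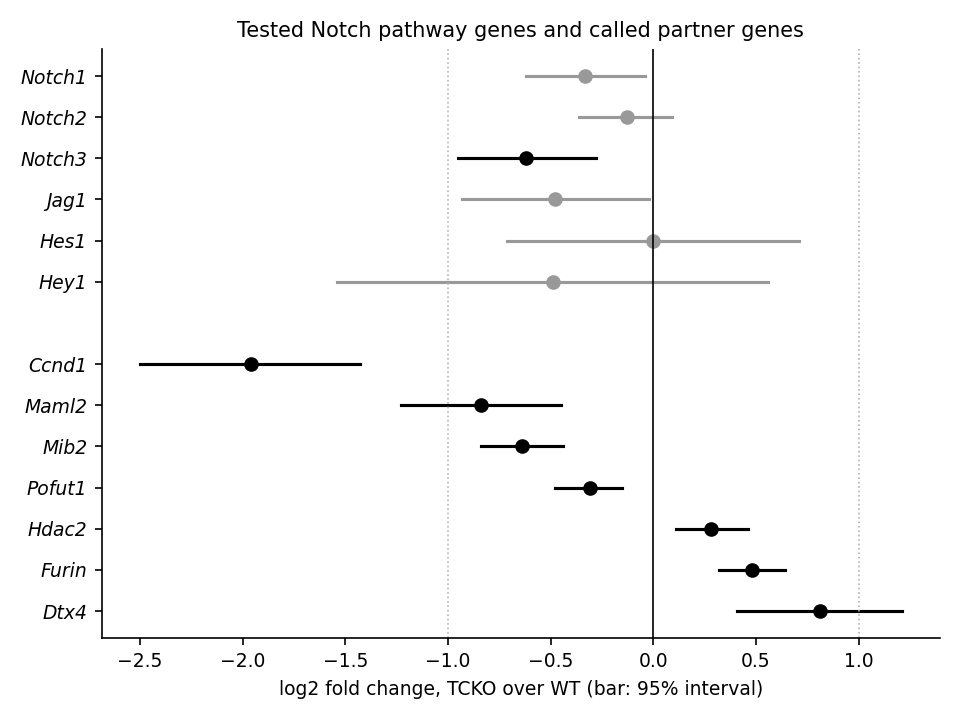
Log2 fold change of TCKO over WT with its 95% interval for the 6 tested members (top) and 7 other pathway genes with an adjusted p under 0.05 (bottom), black where the adjusted p is under 0.05 and grey otherwise, with dotted lines at a 2-fold change. Among the members only the interval of Notch3 (-0.95 to -0.28) is drawn in black, and Ccnd1 (-1.96) is the only point past a 2-fold change.

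Markers of other cell types were read beside these results. All 8 chondrocyte markers were lower in TCKO, with a summed level of 790 to 1007 RPKM in WT and 95.8 to 135 RPKM in TCKO and none at 0. Of 11 mural and smooth muscle markers 9 were tested. Of these 3 were higher (Cnn1, Tagln and Mcam) and 2 were lower (Cspg4 and Pdgfrb), and the summed level was 944 to 1086 RPKM in WT and 1101 to 1338 RPKM in TCKO, with only Kcnj8 at 10 counts or fewer in every library. Of 8 macrophage markers 7 were tested and 2 were lower, at 37.9 to 56.5 RPKM in WT and 16.9 to 34.3 RPKM in TCKO in sum. Within replicate 3 the log2 differences in CPM + 2 of the chondrocyte markers ran from -4.26 (Col9a1) to -0.69 (Sox9). The part of these cells in the levels of Notch3 and Jag1 was not tested.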

How the data were processed

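Poly(A) RNA of primary calvarial osteoblasts was sequenced in 6 libraries, 3 each of WT and TCKO, grouped by sample title. The authors aligned reads to GRCm38 (Ensembl release 99) with STAR 2.7.0e and counted them per gene with featureCounts 2.0.0. The deposited values are raw counts without normalization for 55471 genes, and gene lengths (bases of exon) are given beside them. The strand setting is not stated. All 473 genes whose exon bases all lie within exons on the opposite strand had 0 counts, against 57.2% of genes with no such overlap. Reads in bases shared with opposite-strand exons were thus not counted. Of the members this touches Notch1 (9.8% of exon bases) and Notch3 (6.0%). Notch2 shares 5.0% of its exon bases with a gene on the same strand, for which the counting of shared bases was not checked. Symbols were added by gene identifier for 99.4% of genes.

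Differences between genotypes were tested in R 4.3.3 on these counts with edgeR 4.0.16, using filterByExpr (13826 genes kept), TMM scaling, the quasi-likelihood test of TCKO against WT without covariates, and Benjamini-Hochberg adjustment over all tested genes. Standard errors came from the F statistic. The study's DESeq2 recipe was replaced by edgeR, with DESeq2 1.42.0 as an alternative. The CPM of genes and RPKM used TMM-scaled library sizes over the tested genes. The fit was tested on simulated data in which all libraries were independent, so this test does not cover the closeness of replicates 1 and 2. Alternatives were other scaling, other low-count filters, DESeq2, a replicate block, replicates 1 and 2 summed with or without the block, and each library left out. Same-numbered libraries deviated together from their group means (correlations of 0.204, 0.214 and 0.347 across genes), so the replicate numbers were taken to pair the samples, though WT replicate 2 correlated as well with TCKO replicate 1 (0.225).

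All members are named, with those other pathway genes that had an adjusted p under 0.05 and the gene of each role group with the highest mean RPKM; 1 such gene is counted but not reported here, and further genes were named after their values were seen. Members and lists were chosen with earlier results of these data known.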

Additional observations from a re-analysis of the deposited data

How the results depend on the processing

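The number of members lower in TCKO (1) rose to 2 without the low-count filter and fell to 0 with replicates 1 and 2 summed, with or without a replicate block. Over all genes the share called, 17.7%, was then 11% without the filter, 2.79% with the sums and 8.32% with the sums in a block. The number ranged from 0 to 2 when 1 library was left out, being 0 without replicate 1 or 2 of either genotype and 2 without replicate 3 of either genotype, where the share of all genes called was 8.34% to 9.71% and 20.8% to 22.6%. The number of members higher (0) and of members past a 2-fold change (0) held in all 14 alternatives. The other pathway genes lower (4) and higher (4) were 0 and 0 with replicates 1 and 2 summed and 2 and 1 with these sums in a replicate block, and ranged from 2 to 5 and from 1 to 4 when 1 library was left out. Without the filter 6 were lower and 3 higher. With the replicate block on all 6 libraries 1 member was lower (Notch3, edgeR adjusted p = 0.0310). Of the other genes 4 were lower and 5 higher, Dlk1 being added, and the block changed no other call. The share of all genes called was 23.5% with this block, against 17.7% without it. The cause of these changes was not tested, other than that summing and leaving out libraries reduce the samples. Over the alternatives the edgeR or DESeq2 adjusted p of Notch3 ranged from 0.00136 to 0.257 and its log2 fold change from -0.74 to -0.50. Without the filter Jag1, Dner and Dlk1 also passed (adjusted p = 0.0368, 0.0431 and 0.00824), and Hdac2 did not. With sums the adjusted p exceeded 0.05 for Ccnd1 (0.0518) and Mib2 (0.0558), which passed in the other 13 alternatives. Hes1 ranged from -0.48 to 0.22 and passed in 0 alternatives, and no called gene changed sign. Low counts (at most 17 in any library for Notch4, Jag2, Dll1 and Heyl) limit what this depth can resolve.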
